A study of Mus musculus with 18 samples.

Results

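The sialyl-, fucosyl-, galactosyl- and GalNAc-transferases are the Golgi enzymes that start, extend and cap the sugar chains of glycoproteins and glycolipids. They were chosen by gene symbol, as all symbols of the count table that name an ST3Gal, ST6Gal, ST6GalNAc, ST8Sia, FUT, B3GALT, B4GALT, B3GNT, polypeptide GalNAc-transferase or GCNT gene, plus A3galt2. This rule gave 71 of the 26327 symbols. A3galt2 was added by name and St6gal2 stood in earlier results of these data, so both are given as a description with no p-value. One of the 71, St8sia3os, is a noncoding antisense transcript of St8sia3 that matched by its name and encodes no enzyme.

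The libraries were made from 3 flow-sorted populations of mouse trachea. Brush cells (7 libraries) were sorted as CD45-negative, EpCAM-positive and eGFP-positive cells, EpCAM+ cells (7 libraries) as CD45-negative and EpCAM-positive cells, and CD45+ cells (4 libraries) as leukocytes. All groups came from one BAC transgenic line, ChAT-eGFP, in which the regulatory sequence of Chat (choline acetyltransferase) drives eGFP, and the labels give no treatment or age. Tracheas were dissociated with dispase and then papain, and dead cells were excluded with propidium iodide. The EpCAM+ gate as labelled does not exclude eGFP-positive cells, so it holds the remaining epithelium and any brush cells in it. The labels do not say whether the libraries of a group came from separate mice, so the p-values measure the spread between these libraries, which may be technical in part. In sorted bulk samples such as these, fewer cells of a type and less RNA per cell cannot be told apart.

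Mucin-type O-glycans are started by the polypeptide GalNAc-transferases, which add GalNAc to serine or threonine. The sugar is then extended by galactosyl- and GlcNAc-transferases, branched by the beta-1,6-GlcNAc-transferases, and closed by sialic acid or fucose. N-glycans and glycolipids receive the same outer sugars, often from a different isoenzyme of the same class. Brush cells, also called tuft cells in other epithelia, are chemosensory cells of the airway that carry bitter taste signalling genes and make acetylcholine and cysteinyl leukotrienes.

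The libraries held 838328 to 6031711 counts (brush), 2442601 to 6087184 counts (EpCAM+) and 371652 to 7438791 counts (CD45+). The family, A3galt2 and St6gal2 included, held 0.188% of all counts in brush cells, 0.112% in EpCAM+ cells and 0.120% in CD45+ cells. By library its summed TPM (levels scaled to transcript length and library size) overlapped between groups. The sums were 240.7 to 1086 TPM in brush, 100.7 to 471.9 TPM in EpCAM+ and 276.5 to 463.3 TPM in CD45+ libraries. Brush replicate 4, EpCAM+ replicate 5 and CD45+ replicate 1 stood apart from their groups. Their median Spearman correlations with the other libraries of their group were 0.849, 0.81 and 0.759, against 0.895 to 0.951 for the other 15 libraries. Counts of ribosomal RNA genes made up 24.0 to 63.5% of brush libraries, 12.2 to 34.1% of EpCAM+ libraries and 20.7 to 43.4% of CD45+ libraries. The 12 brush markers, Trpm5, Pou2f3 and Chat among them, summed to 13740 to 16270 CPM (counts scaled to library size) in brush libraries and to 9.80 to 36.9 CPM in EpCAM+ libraries. Basal cell markers summed to 64.7 to 308.7 CPM in brush libraries and 7235 to 9934 CPM in EpCAM+ libraries, and club and goblet markers to 408.8 to 3405 CPM in brush libraries and 34490 to 166900 CPM in EpCAM+ libraries, highest in replicate 5. The 8 pan-leukocyte markers summed to 79.2 to 228.0 CPM in brush libraries, 10.9 to 45.05 CPM in EpCAM+ libraries and 7453 to 8656 CPM in CD45+ libraries. For these lists the sort labels and the marker levels pointed the same way in all 18 libraries. Brush markers summed to 97.7 to 236.5 CPM in CD45+ libraries. Other lists were less distinct. Fibroblast markers summed to 250.6 to 519.8 CPM in EpCAM+ and 3.63 to 26.4 CPM in brush libraries. Ionocyte markers were higher in CD45+ (92.2 to 183.2 CPM) than in EpCAM+ libraries (14.1 to 53.4 CPM). Ciliated markers overlapped between EpCAM+ and CD45+ libraries. The neuroendocrine median was 133.9 CPM in brush and 70.96 CPM in EpCAM+ libraries.

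CPM values here are counts divided by the library size after TMM scaling, and they compare one gene between libraries. Means are given ± SD (n = 7 brush, 7 EpCAM+ and 4 CD45+ libraries), and differences as log2 fold change ± SE, brush over the other group, so that a positive value is higher in brush cells. Levels of different genes are compared only as TPM, which allow for transcript length. Of the 71 symbols, 47 had enough counts to be tested and 24 did not. Calls were made with the edgeR quasi-likelihood test over 13418 genes, at an adjusted p (Benjamini-Hochberg) under 0.05. In brush cells relative to EpCAM+ cells 18 members were higher, where 18.3% of all genes tested were, and 12 were lower, where 22.0% of all genes were. The other 17 did not pass. The members' median log2 fold change was 0.38, against -0.06 for all genes, and it stayed at 0.38 with the 2 genes absent from one group set at their bound. In brush cells relative to CD45+ cells 13 members were higher (23.4% of all genes) and 12 lower (22.4% of all genes), with a median of -0.20 against 0.05. In EpCAM+ cells relative to CD45+ cells 11 were higher (22.5% of all genes) and 15 lower (18.1% of all genes). These counts are a description, since they hold A3galt2 and St6gal2 and 6 members that passed the low-count filter through a single group: St6gal2 and Fut2 through brush libraries, Galnt5 through EpCAM+ libraries, and B3gnt5, Galnt9 and St8sia4 through CD45+ libraries. Such a member is bound to differ from the other groups. Among the 40 members left without these 7, 15 were called higher and 10 lower against EpCAM+ cells, 10 and 9 against CD45+ cells, and 9 and 12 between EpCAM+ and CD45+ cells. The 40 still hold members that were over the filter's cut-off of 2.43 CPM mainly in 1 group. In brush, EpCAM+ and CD45+ libraries, those over it numbered 5, 1 and 0 for B3galt5 and 0, 1 and 4 for St6gal1. They numbered 0, 2 and 4 for St6galnac4 and 0, 6 and 3 for B3gnt3. The counts among the 40 are therefore a description as well. Counts within classes are read against the same shares of all genes. Without the 3 libraries that stood apart the counts were 19 higher and 12 lower against EpCAM+ cells, 16 and 16 against CD45+ cells, and 13 and 19 between EpCAM+ and CD45+ cells.

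Calls in both directions stood side by side in the ST3Gal, ST6GalNAc, beta-1,4-galactosyl and GalNAc classes when brush cells were compared with EpCAM+ cells. In the beta-1,3-galactosyl and beta-1,3-GlcNAc classes both directions rest on B3galt5 (higher) and on B3gnt3 and B3gnt5 (lower). These members passed the filter wholly or mainly through a single group, so the directions in those classes are a description. Both brush comparisons share the brush libraries. Of all genes tested, 11.3% were higher in both, 9.82% lower in both and 39.5% called in neither. Higher in both were 6 of the 40 members: B3galt5, B3gnt2, B4galt4, B4galt6, Gcnt1 and St6galnac2. A3galt2, St6gal2 and Fut2 lay above both groups as well and are given as a description. Lower in both were 6 of the 40: B3gnt3, B4galt1, St3gal1, St3gal4, St3gal5 and St6galnac4. Among these members, B3galt5, B3gnt3 and St6galnac4 passed the filter mainly through the group where each was highest. St3gal6 was higher against EpCAM+ cells and lower against CD45+ cells. Neither comparison called 9 of the 40, among them B4galt3, B4galt7, Fut11 and Galnt7.

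**Figure D1:**
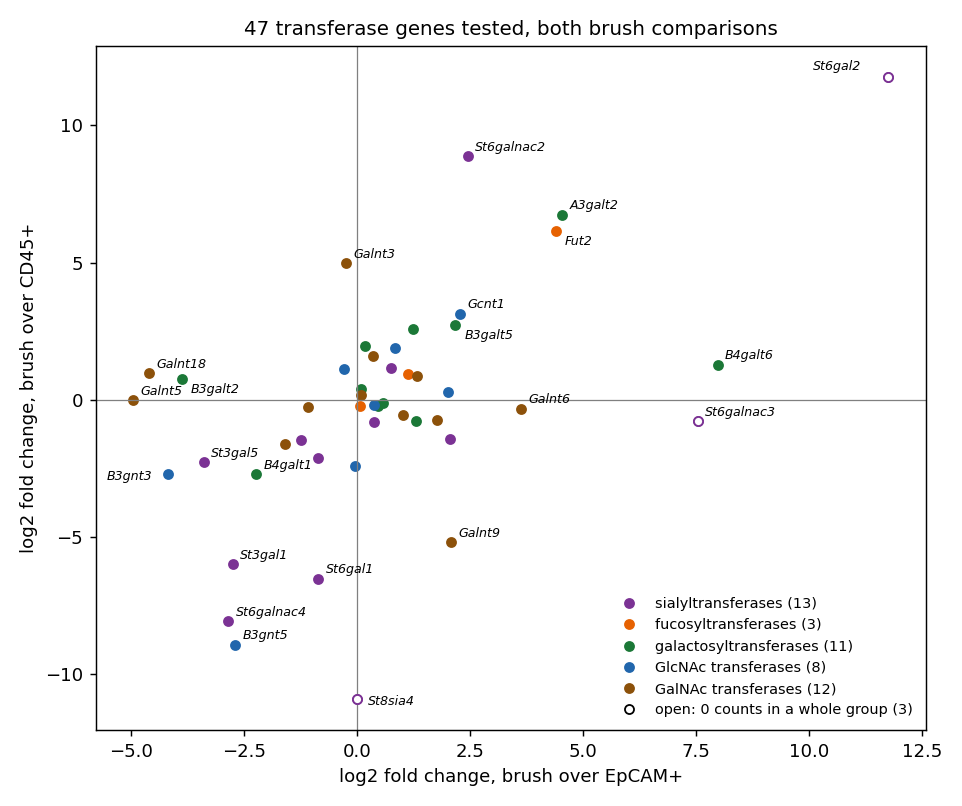
Log2 fold change of the 47 tested members in brush cells over EpCAM+ cells (horizontal axis) and over CD45+ cells (vertical axis), coloured by the sugar transferred. Open circles are St6gal2, St6galnac3 and St8sia4, which had 0 counts in a whole group, so that their fitted positions depend on a prior count. St6gal2, St6galnac2, A3galt2 and Fut2 lie at upper right and St6galnac4, B3gnt5 and St3gal1 at lower left, while Galnt18 and B3galt2 lie at left, below EpCAM+ cells and not called against CD45+ cells.

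Promoter windows are shown for 5 members that were higher in brush cells than in EpCAM+ cells and have a RefSeq entry (assembly GRCm38.p6), because these members lead or set apart their classes in brush cells. Each holds 300 bases, 250 before and 50 after the annotated start, on the gene's strand and in lower case. The motifs searched, on both strands, were the octamer ATGCAAAT, the TATA box TATAAA and the E-box CACGTG, which is its own reverse complement, and a match is in capitals. POU2F3, the transcription factor that marks tuft and brush cells, belongs to the octamer-binding POU family. The windows lie at chr17:55445132-55445431 on the plus strand (St6gal2), chr4:128759008-128759307 plus (A3galt2), chr16:38742009-38742308 plus (B4galt4), chr5:25246123-25246422 plus (Galnt11, one of its RefSeq starts) and chr19:17372795-17373094 minus (Gcnt1, one of its RefSeq starts).
St6gal2: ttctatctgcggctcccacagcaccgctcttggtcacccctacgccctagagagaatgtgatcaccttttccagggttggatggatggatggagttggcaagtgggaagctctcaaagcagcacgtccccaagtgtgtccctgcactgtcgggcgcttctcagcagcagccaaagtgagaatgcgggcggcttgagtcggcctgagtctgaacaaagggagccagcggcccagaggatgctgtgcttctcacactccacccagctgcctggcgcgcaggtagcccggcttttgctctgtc
A3galt2: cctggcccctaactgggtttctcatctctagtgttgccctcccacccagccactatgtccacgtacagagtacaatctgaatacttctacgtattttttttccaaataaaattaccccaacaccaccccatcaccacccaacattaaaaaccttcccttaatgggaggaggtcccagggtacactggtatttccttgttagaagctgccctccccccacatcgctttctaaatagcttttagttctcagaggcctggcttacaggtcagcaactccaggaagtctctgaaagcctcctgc
B4galt4: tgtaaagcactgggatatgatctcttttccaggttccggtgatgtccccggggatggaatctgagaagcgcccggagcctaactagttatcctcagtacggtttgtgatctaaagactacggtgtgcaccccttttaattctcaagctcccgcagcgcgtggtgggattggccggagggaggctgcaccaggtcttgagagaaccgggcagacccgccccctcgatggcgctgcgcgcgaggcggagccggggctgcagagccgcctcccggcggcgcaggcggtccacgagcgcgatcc
Galnt11: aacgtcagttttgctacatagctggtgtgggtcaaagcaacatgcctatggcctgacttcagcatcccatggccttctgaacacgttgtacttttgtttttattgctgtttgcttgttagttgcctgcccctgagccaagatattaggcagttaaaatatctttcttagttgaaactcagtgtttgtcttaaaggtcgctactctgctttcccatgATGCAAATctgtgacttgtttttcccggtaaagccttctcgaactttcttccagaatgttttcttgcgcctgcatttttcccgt
Gcnt1: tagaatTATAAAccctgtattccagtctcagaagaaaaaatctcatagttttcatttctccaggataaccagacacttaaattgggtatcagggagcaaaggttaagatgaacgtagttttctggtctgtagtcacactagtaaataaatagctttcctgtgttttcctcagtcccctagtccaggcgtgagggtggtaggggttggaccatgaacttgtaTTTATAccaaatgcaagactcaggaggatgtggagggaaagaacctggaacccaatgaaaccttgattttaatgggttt
Galnt11 held an octamer beginning 34 bases before this start, and Gcnt1 held TATA box letters beginning 244 bases before it and, on the other strand, 29 bases before it; the matches do not overlap. The windows of St6gal2, A3galt2 and B4galt4 held none of the 3 motifs, nor did the windows at the other RefSeq starts of Galnt11 and Gcnt1. For Galnt11 and Gcnt1 the window shown is thus the only one with a match. The other Galnt11 window (chr5:25222622-25222921) lies nearer the GENCODE start of the gene, chr5:25221904. Of the 71 members, 51 had an entry, with 71 windows in all. The octamer was in 2 of these windows (Galnt11 and Gcnt2) and in 1.74% of all 32851 windows. The TATA box was in 1 of them and in 13.6% of all windows, and the E-box in 5 and in 7.15%. CpG pairs numbered 13 in the St6gal2 window, 3 in that of A3galt2 and 27 in that of B4galt4, against a median of 7 over all windows. These are counts of letters in fixed windows, and no binding was measured.

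The ST6Gal class holds the enzymes that add sialic acid in alpha-2,6 linkage to terminal galactose. St6gal2 (chr17:55445382-55514581, plus strand) had 56.6, 112.5 and 126.7 CPM in brush libraries (lowest, median and highest of 7) and no count in any EpCAM+ or CD45+ library. Its 3262 brush counts put it at least 1118-fold above EpCAM+ cells and at least 640.2-fold above CD45+ cells, with the floor set at 3 counts over the group. Its lowest values were in replicates 4 and 5, and all 7 brush libraries lay above the others. St6gal1 (chr16:23224740-23360350, plus strand), the ST6Gal of leukocytes and liver, showed the opposite layout. It had 0, 0.544 and 1.42 CPM in brush libraries (lowest, median and highest), 0, 1.15 and 4.25 CPM in EpCAM+ libraries, and 91.9, 78.0, 56.7 and 56.6 CPM in the 4 CD45+ libraries. Against CD45+ cells the log2 fold change was -6.52 ± 0.66 (SE), and the groups did not overlap. It is given with no test because St6gal1 passed the filter mainly through CD45+ libraries. Brush and EpCAM+ libraries did overlap, with a log2 difference of -0.85 ± 0.65 (adjusted p = 0.322, edgeR). The EpCAM+ mean of 1.37 CPM rested in part on replicate 2, and was 0.894 CPM without it. In TPM, St6gal2 made up 98.5 to 100% of the class in each brush library, and St6gal1 all of it in 6 of 7 EpCAM+ and 4 of 4 CD45+ libraries. The EpCAM+ share is of a very small sum. The class summed to at most 2.12 TPM in EpCAM+ libraries (median 0.56 TPM), against 11.4 to 101.8 TPM in CD45+ and 11.3 to 69.7 TPM in brush libraries. The remaining EpCAM+ library, replicate 5, listed both at 0.

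**Figure D2:**
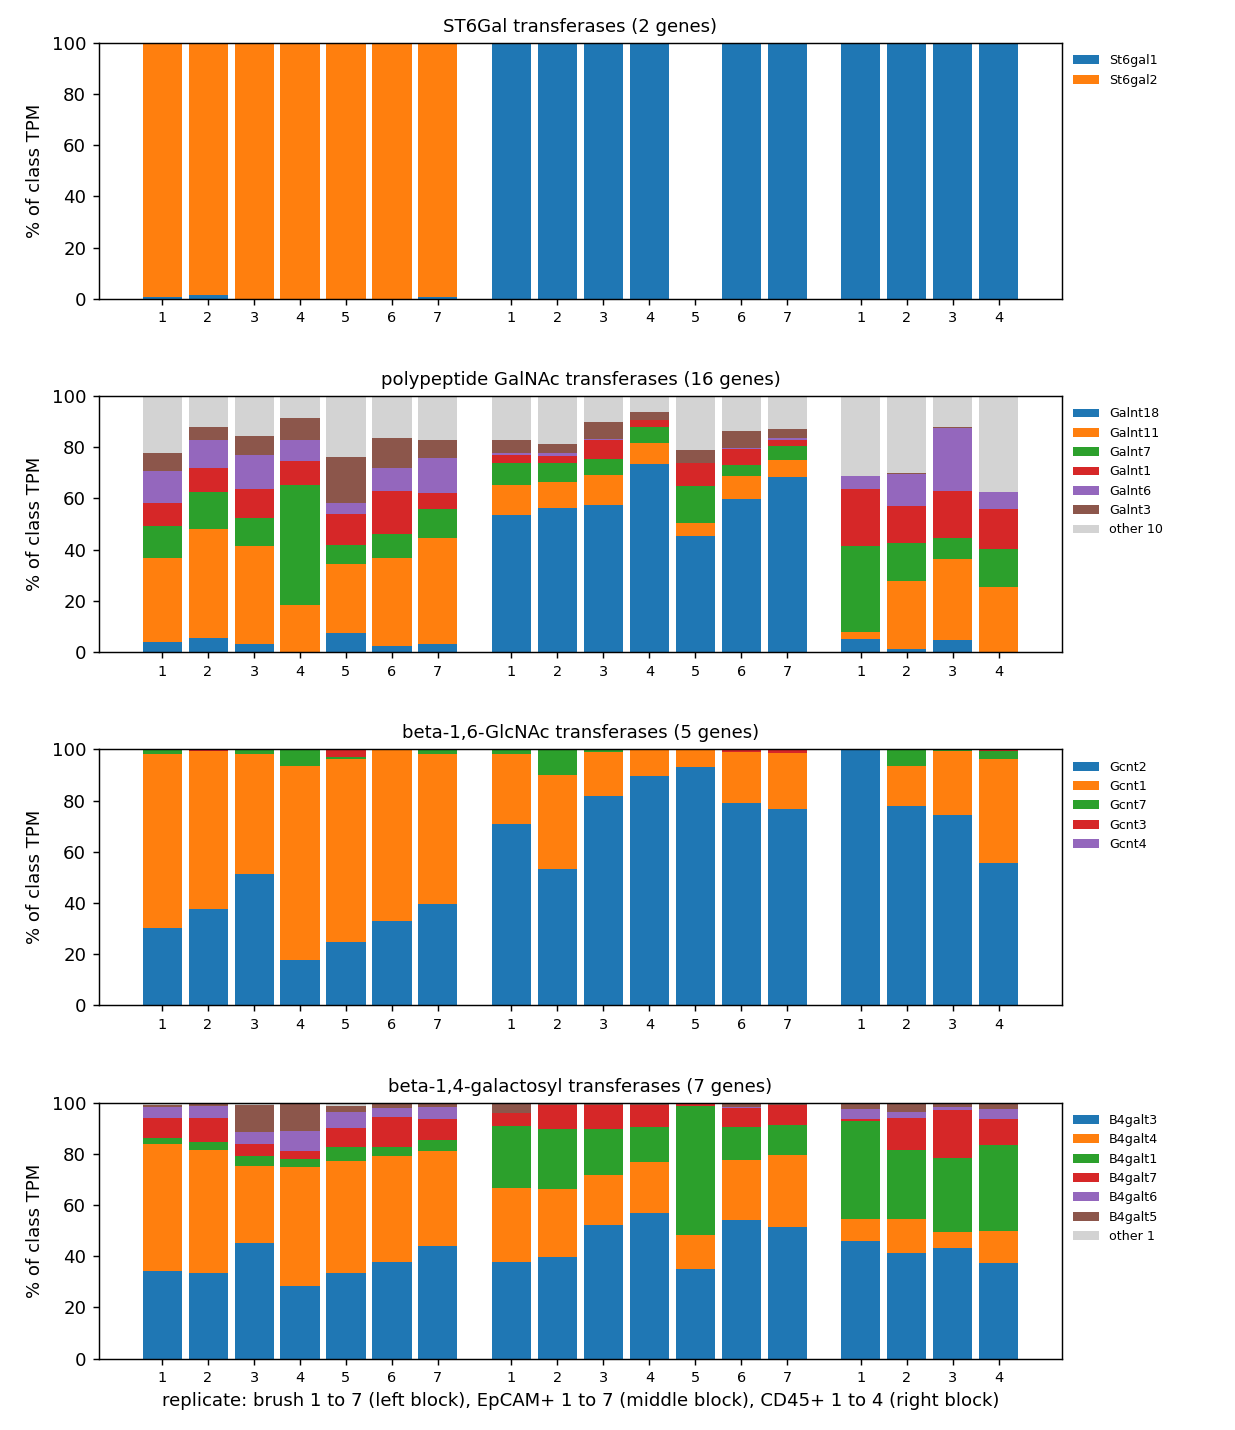
Share of each isoenzyme in the summed TPM of its class, in percent, for each library, with brush libraries in the left block, EpCAM+ in the middle and CD45+ at right. Bars show shares and not levels, and the ST6Gal class summed to at most 2.12 TPM in EpCAM+ libraries. St6gal2 fills the ST6Gal bars of brush cells and St6gal1 those of the other groups (EpCAM+ replicate 5 has no bar because both are listed at 0), Galnt18 holds at most 7.52% of the GalNAc-transferase class in brush libraries and 45.4 to 73.5% in EpCAM+ libraries, and Gcnt1 leads its class in 6 of 7 brush libraries.

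The ST6GalNAc enzymes put sialic acid on the GalNAc of O-glycans or on gangliosides. St6galnac2, which sialylates the GalNAc at the root of O-glycans, was the member with the highest median TPM in brush cells, 138.8 TPM against 17.6 TPM in EpCAM+ cells and 0.08 TPM in CD45+ cells. It had 205.5, 300.8 and 310.7 CPM in brush libraries (lowest, median and highest), 26.5, 47.6 and 83.9 CPM in EpCAM+ libraries, and 0, 0.50, 0.22 and 1.27 CPM in CD45+ libraries. All 3 groups were apart from each other. The log2 fold change was 2.46 ± 0.30 over EpCAM+ cells (adjusted p = 4.4e-07, edgeR) and 8.88 ± 0.57 over CD45+ cells (adjusted p = 3.26e-11, edgeR). The GENCODE annotation lists this symbol as 2 genes, so no position is given. Its exons share 497 bases with 1810032O08Rik on the opposite strand, which averaged 14.5 CPM in brush libraries and 14.3 CPM in EpCAM+ libraries. St6galnac4, which makes disialylated core 1 O-glycans, was highest in CD45+ cells, with a mean of 0.151 ± 0.193 CPM in brush libraries, 1.54 ± 1.30 CPM in EpCAM+ libraries and 59.0 ± 29.2 CPM in CD45+ libraries (SD, n = 7, 7 and 4). It was lower in brush cells in both comparisons, at a log2 fold change of -2.84 ± 0.73 against EpCAM+ cells (adjusted p = 0.00316, edgeR) and -8.08 ± 0.70 against CD45+ cells. The second is given with no test because St6galnac4 passed the filter mainly through CD45+ libraries. St6galnac3, a sialyltransferase of gangliosides, averaged 5.15 ± 3.51 CPM in brush libraries and had no count in any EpCAM+ library, a level at least 64.1-fold higher in brush cells (adjusted p = 4.32e-06, edgeR). In CD45+ cells it averaged 8.90 ± 7.96 CPM, or 4.94 CPM without replicate 3. St6galnac1, St6galnac5 and St6galnac6 were too low to test, and the highest mean among them was 7.30 CPM, that of St6galnac6 in CD45+ cells (4.34 CPM without replicate 2).

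The ST3Gal enzymes add sialic acid in alpha-2,3 linkage. In this class 1 of 6 members was higher (18.3% of all genes) and 3 were lower (22.0% of all genes) in brush cells than in EpCAM+ cells. Against CD45+ cells 1 was higher (23.4% of all genes) and 4 lower (22.4% of all genes). St3gal6, which acts on the lactosamine ends of N- and O-glycans, had 15.2, 26.1 and 36.1 CPM in brush libraries, 0.926, 7.22 and 10.7 CPM in EpCAM+ libraries, and 34.5, 55.3, 66.7 and 123.7 CPM in CD45+ libraries. Brush cells lay between the other groups, without overlap with EpCAM+ libraries (log2 fold change 2.07 ± 0.38, adjusted p = 0.000122, edgeR). Against CD45+ cells the log2 fold change was -1.42 ± 0.41 (adjusted p = 0.00621, edgeR), and it did not pass without CD45+ replicate 4 (-1.0, adjusted p = 0.0687). Exons of St3gal6 share 1603 bases with Dcbld2 on the opposite strand, and the strand setting of the counting is not given in the sources used here. Dcbld2 averaged 8.50 CPM in brush libraries, 4.16 CPM in EpCAM+ libraries and 15.1 CPM in CD45+ libraries.

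St3gal5, the GM3 ganglioside synthase, had 0.813, 3.24 and 4.69 CPM in brush libraries, 8.64, 33.3 and 40.5 CPM in EpCAM+ libraries, and 2.87, 19.2, 9.09 and 18.3 CPM in CD45+ libraries. It was lower than in EpCAM+ cells at a log2 fold change of -3.38 ± 0.43 (adjusted p = 1.09e-06, edgeR), with no overlap, and than in CD45+ cells at a log2 fold change of -2.27 ± 0.47 (adjusted p = 0.000347, edgeR), where CD45+ replicate 1 lay within the brush range. St3gal1, which caps core 1 O-glycans, averaged 1.29 ± 1.91 CPM in brush libraries, 9.82 ± 2.83 CPM in EpCAM+ libraries and 92.9 ± 21.7 CPM in CD45+ libraries. It was lower in brush cells, at a log2 fold change of -2.75 ± 0.60 against EpCAM+ cells (adjusted p = 0.000766, edgeR) and -5.99 ± 0.67 against CD45+ cells (adjusted p = 1.13e-07, edgeR). The brush mean was 0.745 CPM without replicate 1. St3gal4, another enzyme of lactosamine ends, had 11.3, 31.4 and 38.2 CPM in brush libraries, 10.5, 78.8 and 108.7 CPM in EpCAM+ libraries, and 2.87, 132.6, 61.7 and 133.9 CPM in CD45+ libraries. In each group the lowest library was the one that stood apart, and brush libraries overlapped the others through EpCAM+ replicate 5 and CD45+ replicate 1. The log2 fold changes of -1.24 ± 0.46 against EpCAM+ cells (adjusted p = 0.0351, edgeR) and -1.47 ± 0.52 against CD45+ cells (adjusted p = 0.0234, edgeR) changed with the settings. The first did not pass without any one of brush replicates 2, 3, 4 or 5 or EpCAM+ replicates 4, 6 or 7 (-1.24 to -1.1, edgeR adjusted p 0.0536 to 0.0709), nor under voom (-0.95, adjusted p = 0.138). The second did not pass without CD45+ replicate 2 or 4 (adjusted p = 0.102 and 0.104) nor under voom (adjusted p = 0.121). Neither passed with the replicate number as a block in the fit (-0.98, adjusted p = 0.116, and -1.1, adjusted p = 0.169, edgeR). In TPM, St3gal6 led the class in 4 and St3gal4 in 3 of 7 brush libraries, and St3gal4 led in 7 of 7 EpCAM+ libraries. St3gal2 and St3gal3 did not pass against EpCAM+ cells (log2 differences 0.75 ± 0.34 and 0.38 ± 0.36). St3gal2 did pass there under voom, with only the 2 groups in the fit, and without CD45+ replicate 1 (adjusted p = 0.0422, 0.0224 and 0.0437). St3gal2 was higher than in CD45+ cells (log2 fold change 1.15, adjusted p = 0.0312, edgeR), but not without CD45+ replicate 3 or 4 or brush replicate 2 (adjusted p = 0.109, 0.0582 and 0.0522).

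The ST8Sia enzymes build sialic acid chains. St8sia4, a polysialyltransferase, had no count in any brush or EpCAM+ library and 23.0, 72.3, 67.5 and 55.6 CPM in the 4 CD45+ libraries, so that CD45+ cells were at least 641.4-fold higher than brush cells. Pan-leukocyte markers summed to at most 228.0 CPM in brush libraries. St8sia6 had 0, 1.63 and 4.26 CPM in brush libraries, 0.617, 2.04 and 9.80 CPM in EpCAM+ libraries, and 2.87, 16.7, 7.99 and 3.56 CPM in CD45+ libraries. Its log2 fold change against CD45+ cells, -2.12 ± 0.78 (adjusted p = 0.0302, edgeR), did not pass without CD45+ replicate 2 or 3 or without brush replicate 3 or 7 (adjusted p = 0.196, 0.0591, 0.0507 and 0.0636). With the replicate block it did not pass either (-2.18, adjusted p = 0.0663, edgeR). St8sia3, of brain gangliosides, averaged 2.94 ± 4.22 CPM in brush libraries, with 10.2 CPM in replicate 6 and a mean of 1.72 CPM without it, and it was too low to test.

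The alpha-1,3-galactosyltransferase A3galt2, the iGb3 glycolipid synthase, had 55.0, 98.1 and 112.4 CPM in brush libraries, 2.34, 4.04 and 5.61 CPM in EpCAM+ libraries, and 0, 1.5, 0.22 and 1.02 CPM in CD45+ libraries. Every brush library lay above every EpCAM+ and CD45+ library. The log2 fold change was 4.54 ± 0.34 over EpCAM+ cells and 6.75 ± 0.53 over CD45+ cells (SE, given with no test). GENCODE places the gene at chr4:128755364-128769298 on the plus strand.

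Among the beta-1,4-galactosyltransferases, which build lactosamine and lactosylceramide, 3 of 6 tested members were higher and 1 lower in brush cells than in EpCAM+ cells. B4galt6, a lactosylceramide synthase, had 36.7, 39.9 and 50.9 CPM in brush libraries and 0, 0 and 0.372 CPM in EpCAM+ libraries (lowest, median and highest). The 4 CD45+ libraries had 34.5, 15.2, 6.02 and 19.3 CPM. The difference over EpCAM+ cells, 7.98 ± 0.52 (adjusted p = 5.5e-11, edgeR), was the largest among members with counts in both groups, and it rests on 4 EpCAM+ counts in all. Over CD45+ cells it was 1.27 ± 0.41 (adjusted p = 0.0145, edgeR), and it did not pass without CD45+ replicate 3 (0.94, adjusted p = 0.0655). B4galt5, the other lactosylceramide synthase, averaged 8.20 ± 4.47 CPM in brush libraries and 3.14 ± 1.39 CPM in EpCAM+ libraries (log2 fold change 1.31 ± 0.39, adjusted p = 0.0103, edgeR). In CD45+ libraries it averaged 13.7 ± 5.54 CPM and did not pass (-0.79 ± 0.44, adjusted p = 0.155, edgeR).

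B4galt4, which acts on sulfated GlcNAc, had 71.0, 97.4 and 148.1 CPM in brush libraries, 28.4, 47.7 and 60.1 CPM in EpCAM+ libraries, and 14.4, 24.9, 10.8 and 20.1 CPM in CD45+ libraries. The 3 groups followed each other in that order, with no overlap of brush cells with either. The log2 fold change was 1.25 ± 0.26 over EpCAM+ cells (adjusted p = 0.000375, edgeR) and 2.59 ± 0.34 over CD45+ cells (adjusted p = 1.19e-06, edgeR). B4galt1, the broadly used enzyme of this class and the catalytic part of lactose synthase, was lower in brush cells. It had 13.6, 21.1 and 24.7 CPM in brush libraries, 59.0, 76.3 and 252.4 CPM in EpCAM+ libraries, and 212.6, 114.2, 101.5 and 123.9 CPM in CD45+ libraries. Brush cells were below all others, at a log2 fold change of -2.23 ± 0.33 against EpCAM+ cells (adjusted p = 7.92e-06, edgeR) and -2.72 ± 0.37 against CD45+ cells (adjusted p = 1.68e-06, edgeR). The highest EpCAM+ value was that of replicate 5, the library with the highest club and goblet sum; whether the 2 are related was not tested. B4galt3 did not pass in either comparison, with means of 82.2 ± 12.1 CPM in brush libraries, 77.3 ± 20.3 CPM in EpCAM+ libraries and 62.0 ± 10.9 CPM in CD45+ libraries, and log2 differences of 0.09 ± 0.22 over EpCAM+ cells and 0.39 ± 0.27 over CD45+ cells. Its exons share 791 bases with Ppox on the opposite strand. In TPM, B4galt4 led the class in 5 of 7 brush libraries, and B4galt3 led in 6 of 7 EpCAM+ and 4 of 4 CD45+ libraries.

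**Figure D3:**
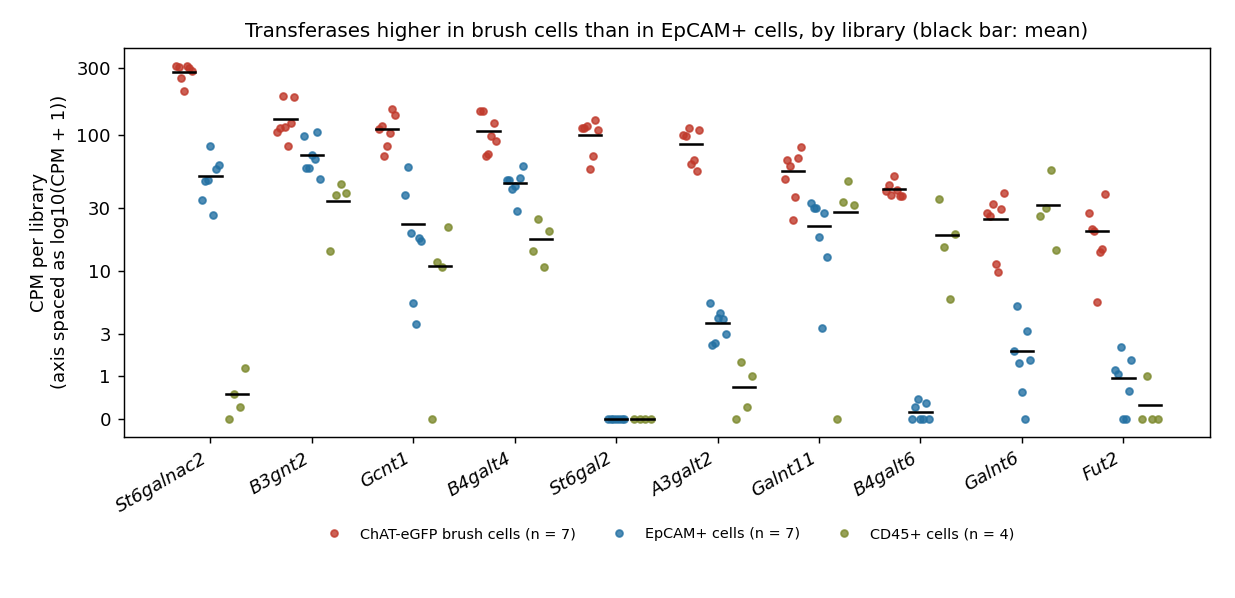
CPM per library of 10 members higher in brush cells than in EpCAM+ cells, on an axis spaced as log10(CPM + 1), with brush, EpCAM+ and CD45+ libraries from left to right for each gene and black bars at the group means. St6gal2 lies at 0 in both other groups, B4galt6 is at or below 0.372 CPM in EpCAM+ libraries, and brush and EpCAM+ libraries overlap for B3gnt2 and Galnt11.

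The beta-1,3-galactosyltransferases build type 1 chains, ganglioside ends and the linker of proteoglycans. B3galt2, an enzyme of type 1 chains, had 0, 6.77 and 9.53 CPM in brush libraries, 27.8, 95.5 and 133.7 CPM in EpCAM+ libraries, and 0, 5.73, 1.64 and 4.06 CPM in CD45+ libraries. It was lower in brush cells than in EpCAM+ cells at a log2 fold change of -3.87 ± 0.45 (adjusted p = 2.85e-07, edgeR), with no overlap, and did not pass against CD45+ cells (0.77 ± 0.56, adjusted p = 0.275, edgeR). Its exons share 679 bases with Cdc73 on the opposite strand, which averaged 6.78 CPM in brush libraries and 8.88 CPM in EpCAM+ libraries. B3galt5, another type 1 enzyme, was higher in brush cells, with 4.00 ± 1.39 CPM in brush libraries, 0.968 ± 1.45 CPM in EpCAM+ libraries and 0.427 ± 0.532 CPM in CD45+ libraries. Its log2 fold change was 2.18 ± 0.70 over EpCAM+ cells and 2.73 ± 0.93 over CD45+ cells. Both are given with no test because B3galt5 passed the filter mainly through brush libraries. Without CD45+ replicate 2 or 4 the second was 2.47 or 2.48 and was not called. With the replicate block the second was 2.26 and was not called. B3galt6, of the proteoglycan linker, did not pass against EpCAM+ cells (23.4 ± 11.01 CPM in brush libraries, 21.1 ± 10.5 CPM in EpCAM+ libraries; 0.18 ± 0.41). It was higher than in CD45+ cells (5.07 ± 4.81 CPM, or 2.93 CPM without replicate 3) by 1.95 ± 0.55 (adjusted p = 0.00532, edgeR). B4galt7, which adds the galactose before it in that linker, did not pass in either comparison (0.57 ± 0.42 and -0.13 ± 0.50).

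Of the beta-1,3-GlcNAc-transferases, 2 of 5 tested were higher and 2 lower in brush cells than in EpCAM+ cells. The lower ones, B3gnt3 and B3gnt5, passed the filter mainly through EpCAM+ libraries and through CD45+ libraries alone. These counts are therefore a description. B3gnt2, the main synthase of polylactosamine chains, led the class in TPM in 7 of 7 brush and 7 of 7 EpCAM+ libraries. It had 83.8, 113.1 and 190.4 CPM in brush libraries, 48.5, 67.0 and 105.5 CPM in EpCAM+ libraries, and 14.4, 37.1, 44.1 and 38.1 CPM in CD45+ libraries. Brush and EpCAM+ libraries overlapped, and the rise of 0.85 ± 0.27 (adjusted p = 0.015, edgeR) did not pass without brush replicate 7 (0.72, adjusted p = 0.0505) or with RSEM expected counts (0.69, adjusted p = 0.163). B3gnt2 shares 2449 exon bases with Gm28048 on the same strand, and Gm28048 is not a row of the count table. Over CD45+ cells the rise was 1.90 ± 0.35 (adjusted p = 8.11e-05, edgeR). B3gnt8, which works with B3gnt2, averaged 11.1 ± 4.57 CPM in brush libraries and 2.68 ± 1.86 CPM in EpCAM+ libraries (2.01 ± 0.52, adjusted p = 0.00358, edgeR). In CD45+ libraries it averaged 8.03 ± 5.49 CPM and did not pass (0.30 ± 0.59, adjusted p = 0.713, edgeR). Its exons share 1171 bases with Bckdha on the opposite strand, which averaged 47.3 CPM in brush libraries and 60.1 CPM in EpCAM+ libraries.

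B3gnt3, which extends core 1 O-glycans, had 0.357, 0.725 and 2.72 CPM in brush libraries, 2.78, 21.3 and 31.1 CPM in EpCAM+ libraries, and 0, 5.48, 9.20 and 8.38 CPM in CD45+ libraries. It was lower in brush cells at a log2 fold change of -4.17 ± 0.56 against EpCAM+ cells and -2.72 ± 0.61 against CD45+ cells (adjusted p = 0.000755, edgeR). The first is given with no test because B3gnt3 passed the filter mainly through EpCAM+ libraries. B3gnt5, which starts the lacto-series glycolipids, had 1 count in all brush libraries together, 12 in EpCAM+ cells and 630 in CD45+ cells. CD45+ cells were higher than brush cells by a ratio of 1070 (95% exact interval 191.3 to 42330, counting error only). EpCAM+ cells were higher than brush cells by a ratio of 11.7 (95% exact interval 1.73 to 499.1, counting error only). B3gnt5 passed the filter through CD45+ libraries alone, so no p-value is given. B3gnt7, of keratan sulfate, had no count in brush cells and 9.54 ± 6.46 CPM in CD45+ libraries, and it was not tested.

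The beta-1,6-GlcNAc-transferases make the branches. Gcnt1, the core 2 enzyme of O-glycans (chr19:17326141-17372844, minus strand), had 70.2, 109.5 and 153.6 CPM in brush libraries, 3.70, 17.9 and 59.3 CPM in EpCAM+ libraries, and 0, 11.7, 10.7 and 21.6 CPM in CD45+ libraries. All 7 brush libraries lay above both other groups. The log2 fold change was 2.28 ± 0.48 over EpCAM+ cells (adjusted p = 0.000487, edgeR) and 3.14 ± 0.64 over CD45+ cells (adjusted p = 0.000258, edgeR). Gcnt2, the I-branching enzyme of polylactosamine, had 28.3, 76.6 and 95.9 CPM in brush libraries, 57.5, 84.2 and 112.6 CPM in EpCAM+ libraries, and 2.87, 49.6, 32.5 and 32.0 CPM in CD45+ libraries. It did not pass against EpCAM+ cells (-0.29 ± 0.33, adjusted p = 0.508, edgeR). Against CD45+ cells the rise of 1.11 ± 0.41 (adjusted p = 0.0287, edgeR) did not pass without CD45+ replicate 1, 3 or 4 (adjusted p = 0.0514, 0.0512 and 0.0589). With the replicate block it did not pass either (1.1, adjusted p = 0.0541, edgeR). Within the class, Gcnt1 took 46.8 to 75.9% of the summed TPM in brush libraries and 6.53 to 36.6% in EpCAM+ libraries, while Gcnt2 took 17.6 to 51.4% in brush libraries and 53.2 to 93.1% in EpCAM+ libraries. Gcnt7 averaged 2.10 ± 0.786 CPM in brush libraries and 1.46 ± 3.03 CPM in EpCAM+ libraries, where the mean was 0.325 CPM without replicate 2. It was called against EpCAM+ cells under DESeq2 and voom (adjusted p = 0.00932 and 0.0176) and not by edgeR. Gcnt3 and Gcnt4 were too low to test.

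Of the fucosyltransferases, 3 of 8 had enough counts. Fut2, the alpha-1,2-fucosyltransferase of the secretor blood group in mucosal epithelia, had 5.66, 20.1 and 37.7 CPM in brush libraries, 0, 1.06 and 2.23 CPM in EpCAM+ libraries, and 0, 0.997, 0 and 0 CPM in CD45+ libraries. The brush libraries lay above all others, at a log2 fold change of 4.40 ± 0.65 over EpCAM+ cells and 6.16 ± 1.03 over CD45+ cells, given with no test because Fut2 passed the filter through brush libraries alone. Its relative Fut1 averaged 0.865 ± 0.826 CPM in brush libraries and 0.388 ± 0.756 CPM in EpCAM+ libraries and was not tested. Fut8, the core fucosyltransferase of N-glycans, had 20.7, 53.3 and 71.0 CPM in brush libraries, 12.7, 19.97 and 38.6 CPM in EpCAM+ libraries, and 2.87, 33.7, 27.8 and 27.7 CPM in CD45+ libraries. It was higher than in EpCAM+ cells by 1.13 ± 0.34 (adjusted p = 0.0108, edgeR), with overlap. Over CD45+ cells the difference of 0.93 ± 0.41 (adjusted p = 0.0701, edgeR) did not pass, though it did without brush replicate 4 (1.07, adjusted p = 0.034), without the 3 libraries that stood apart (0.83, adjusted p = 0.0447), under DESeq2 (adjusted p = 0.0317) and under RLE and upper-quartile scaling (adjusted p = 0.0462 and 0.0294). Fut11 did not pass (log2 differences 0.06 and -0.24), with 25.4 ± 7.27 CPM in brush libraries, 24.0 ± 9.61 CPM in EpCAM+ libraries and 29.1 ± 5.37 CPM in CD45+ libraries. The alpha-1,3-fucosyltransferases that make Lewis x or sialyl Lewis x were at or below a mean of 0.574 CPM in brush libraries: Fut9 at 0.574 ± 0.68 CPM, Fut4 at 0.154 ± 0.282 CPM and Fut7, the leukocyte enzyme of selectin ligands, at 0.0305 ± 0.0806 CPM. Fut7 averaged 3.01 ± 2.21 CPM in CD45+ libraries.

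The polypeptide GalNAc-transferases start mucin-type O-glycans, and 12 of 16 were tested. In brush cells 4 were higher and 4 lower than in EpCAM+ cells, and against CD45+ cells 1 was higher and 1 lower, counts that hold Galnt5 and Galnt9. Galnt18 (chr7:111471661-111779977, minus strand) had 0, 5.98 and 9.80 CPM in brush libraries, 46.9, 154.5 and 204.4 CPM in EpCAM+ libraries, and 5.75, 2.24, 6.02 and 0 CPM in CD45+ libraries. It was lower in brush cells than in EpCAM+ cells at a log2 fold change of -4.59 ± 0.50 (adjusted p = 1.13e-07, edgeR), with no overlap. Against CD45+ cells the difference of 0.96 ± 0.61 did not pass (adjusted p = 0.213, edgeR), though it did without CD45+ replicate 3 (2.06, adjusted p = 0.0403). Galnt5 had 0.215 ± 0.39 CPM in brush libraries and 9.12 ± 6.81 CPM in EpCAM+ libraries (log2 fold change -4.94 ± 0.77, given with no test because it passed the filter through EpCAM+ libraries alone).

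Galnt6 was higher in brush than in EpCAM+ cells, with 9.80, 27.4 and 38.4 CPM in brush libraries, 0, 1.62 and 5.31 CPM in EpCAM+ libraries, and 25.9, 29.7, 55.7 and 14.5 CPM in CD45+ libraries. Brush cells were higher than EpCAM+ cells by 3.64 ± 0.51 (adjusted p = 4.15e-06, edgeR), with no overlap, and did not pass against CD45+ cells (-0.33 ± 0.52, and 0.18 without CD45+ replicate 3). Galnt11 had 24.5, 59.9 and 81.4 CPM in brush libraries, 3.39, 27.4 and 32.5 CPM in EpCAM+ libraries, and 0, 32.9, 47.1 and 31.2 CPM in CD45+ libraries. It rose by 1.34 ± 0.44 over EpCAM+ cells (adjusted p = 0.017, edgeR), with overlap, and did not pass against CD45+ cells (0.87 ± 0.52, adjusted p = 0.181, edgeR). Galnt1 and Galnt10 were also higher than in EpCAM+ cells, at log2 fold changes of 1.03 ± 0.33 and 1.77 ± 0.50. Neither passed against CD45+ cells (-0.54 ± 0.38 and -0.72 ± 0.54). Galnt3, known for protecting the hormone FGF23, did not pass within the epithelium (14.8 ± 3.38 CPM in brush libraries, 17.6 ± 6.55 CPM in EpCAM+ libraries), and both were above CD45+ cells (0.324 ± 0.383 CPM; 4.98 ± 0.56 for brush cells, adjusted p = 1.2e-07, edgeR).

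Galnt12 was lower than in EpCAM+ cells (log2 fold change -1.58, adjusted p = 0.0294, edgeR), at a mean of 2.16 CPM in brush libraries and 5.89 CPM in EpCAM+ libraries, not passing without brush replicate 2 or 6 or EpCAM+ replicate 2 (adjusted p = 0.0606, 0.0553 and 0.0549). With the replicate block it did not pass either (-1.66, adjusted p = 0.0575, edgeR). Galnt9 had a log2 fold change of -5.2 against CD45+ cells, given with no test because it passed the filter through CD45+ libraries alone. Galnt7 did not pass in either comparison, with 26.1 CPM in brush libraries, 24.8 CPM in EpCAM+ libraries and 23.3 CPM in CD45+ libraries on average. The value of Galnt2 is uncertain. It had 13.2, 18.4 and 26.4 CPM in brush libraries, 30.7, 40.4 and 60.6 CPM in EpCAM+ libraries, and 5.75, 25.2, 21.6 and 39.1 CPM in CD45+ libraries, a log2 fold change of -1.08 ± 0.28 against EpCAM+ cells (adjusted p = 0.00346, edgeR). Its exons share 3854 bases with Gm20388 on the same strand, which is not a row of the count table, and the table gave 3.73, 4.80 and 17.1 times as many counts as RSEM in brush, EpCAM+ and CD45+ cells. With RSEM expected counts the difference was -0.52 (edgeR adjusted p = 0.603). In TPM, Galnt11 led the class in 6 of 7 brush libraries with 18.4 to 42.6% of the sum, and Galnt18 led in 7 of 7 EpCAM+ libraries.

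**Figure D4:**
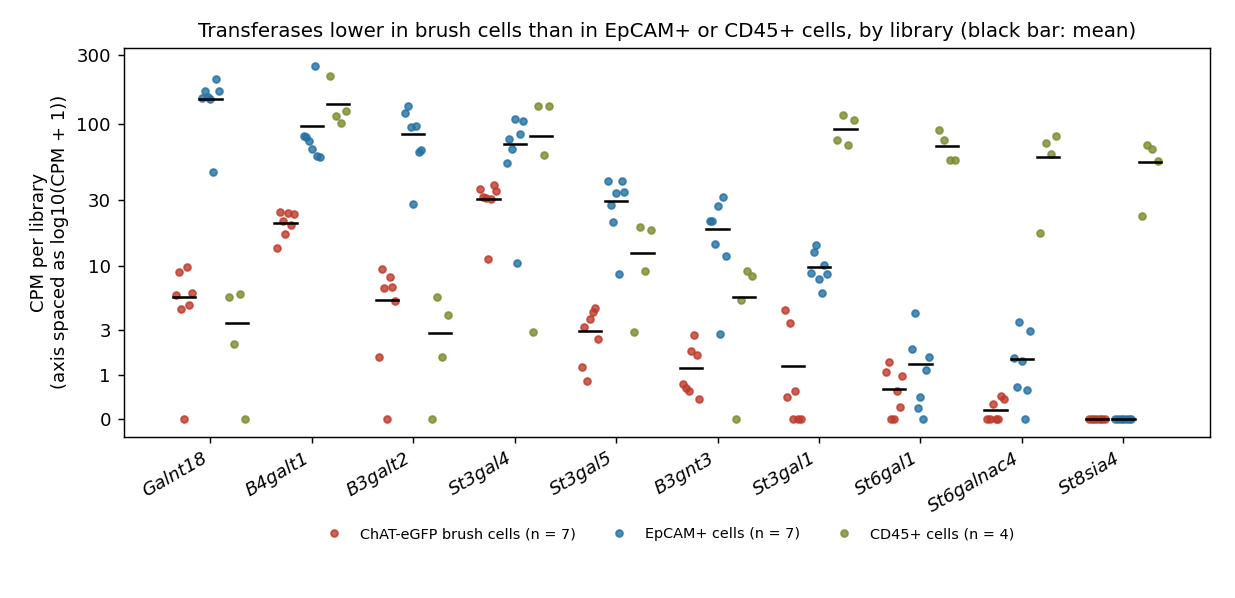
CPM per library of 10 members lower in brush cells than in EpCAM+ or CD45+ cells, drawn as for the higher members, with brush, EpCAM+ and CD45+ libraries from left to right and black bars at the means. Galnt18 and B3galt2 are high in EpCAM+ libraries alone, St6gal1, St6galnac4 and St8sia4 in CD45+ libraries alone, and B4galt1 in both; the low EpCAM+ points of Galnt18 and St3gal4 and the high one of B4galt1 are replicate 5.

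The 24 members not tested averaged at most 2.94 CPM in brush libraries and 2.74 CPM in EpCAM+ libraries, and at most 9.54 CPM in CD45+ libraries. Of them 22 lay under 1 CPM in brush libraries, 5 with no count at all.

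The sugar donors, the other enzymes of the same chains and their carriers were taken from lists of 84 genes, of which 62 were tested. In brush cells relative to EpCAM+ cells 16 were higher and 14 lower, and relative to CD45+ cells 21 were higher and 15 lower (9 lower without CD45+ replicate 4), to be read against the shares of all genes given above. These counts are a description as well, since they hold genes such as Mgat5b and Cmah that passed the filter through a single group. Of 4 tested genes of CMP-sialic acid supply, 1 was higher and none lower than in EpCAM+ cells (median log2 fold change 0.41), and 3 were higher than in CD45+ cells (median 1.64). Cmas, which activates sialic acid in the nucleus, averaged 38.27 ± 11.01 CPM in brush libraries, 11 ± 4.03 CPM in EpCAM+ libraries and 7.66 ± 1.60 CPM in CD45+ libraries. It was higher by 1.79 ± 0.28 (adjusted p = 1.42e-05, edgeR) and 2.23 ± 0.36 (adjusted p = 1.85e-05, edgeR). Gne, which starts sialic acid synthesis, was higher than in CD45+ cells by 1.81 ± 0.33.

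Of 6 genes of GDP-fucose supply, 1 was higher than in EpCAM+ cells (median 0.54), and 2 were higher and 1 lower than in CD45+ cells (median 0.79). Tsta3, the last step to GDP-fucose, averaged 114.4 ± 26.9 CPM in brush libraries and 48.7 ± 15.8 CPM in EpCAM+ libraries (1.22 ± 0.25, adjusted p = 0.000357, edgeR). Fuk, the fucose kinase of the salvage route, was higher than in CD45+ cells by 2.01 ± 0.45 and Slc35c2 was lower at a log2 fold change of -1.80 ± 0.35. Of 8 genes of UDP-galactose and UDP-GalNAc supply, 1 was higher (Galk1, 0.91 ± 0.27) and 1 lower (Ugp2, -1.53 ± 0.33) than in EpCAM+ cells, with a median of 0.09. Against CD45+ cells Galk1 was higher (1.35 ± 0.34) and Slc35b4 lower (-1.28 ± 0.52, adjusted p = 0.0497, edgeR), with a median of -0.03. Of 8 genes of UDP-GlcNAc supply, Gfpt1 was higher (0.94 ± 0.36) and Uap1 and Uap1l1 lower (-1.51 ± 0.44 and -0.92 ± 0.33) than in EpCAM+ cells, with a median of -0.30. Against CD45+ cells 2 were higher (Slc35a3, 1.46 ± 0.55, and Gfpt1, 1.36 ± 0.46) and 3 lower, led by Slc35d2 (-1.98 ± 0.51) and Uap1l1 (-1.73 ± 0.37), with a median of 0.55.

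Of 9 tested genes for core 1 and N-glycan branching, 3 were higher and 4 lower than in EpCAM+ cells (median -0.19), and 5 higher and 2 lower than in CD45+ cells (median 1.03). Mgat5, which makes the beta-1,6 branch of N-glycans, averaged 55.2 ± 12.3 CPM in brush libraries and 12.9 ± 4.72 CPM in EpCAM+ libraries (2.10 ± 0.27, adjusted p = 9.83e-07, edgeR). Its relative Mgat5b averaged 10.5 ± 5.44 CPM in brush libraries and 0.386 ± 0.779 CPM in EpCAM+ libraries (4.65 ± 0.75), and had 1 count in CD45+ cells, a ratio of 199.0 (95% exact interval 35.5 to 7883, counting error only). Mgat5b is given with no test because it passed the filter through brush libraries alone. C1galt1c1, the chaperone of the core 1 synthase, was higher by 1.08 ± 0.26 (adjusted p = 0.00217, edgeR), while the synthase C1galt1 itself was lower at a log2 fold change of -0.97 ± 0.35 (adjusted p = 0.0298, edgeR). Mgat3, of the bisecting GlcNAc, was lower than in EpCAM+ cells at a log2 fold change of -1.0 ± 0.34 and higher than in CD45+ cells by 7.01 ± 0.66, where it averaged 0.331 ± 0.47 CPM. C1galt1 and Mgat1 were lower than in CD45+ cells, at a log2 fold change of -1.04 ± 0.40 and -1.27 ± 0.40.

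Of 7 tested genes for other capping enzymes, 2 were higher and 1 lower than in EpCAM+ cells (median -0.43), and 2 higher and 4 lower than in CD45+ cells (median -1.56). A4galt, which adds alpha-1,4-galactose to lactosylceramide to make Gb3, averaged 28.3 ± 5.72 CPM in brush libraries, 0.725 ± 0.81 CPM in EpCAM+ libraries and 6.15 ± 8.40 CPM in CD45+ libraries. It was higher by 5.16 ± 0.68 and 2.01 ± 0.70, given with no test because A4galt passed the filter mainly through brush libraries. Casd1, the sialic acid O-acetyltransferase, was higher by 2.32 ± 0.36 and 2.43 ± 0.47. Ggta1, of the alpha-galactose epitope, was lower than in EpCAM+ cells at a log2 fold change of -1.48 ± 0.48. Cmah, which turns acetyl- into glycolylneuraminic acid, averaged 0.197 ± 0.346 CPM in brush libraries, 0.281 ± 0.483 CPM in EpCAM+ libraries and 63.7 ± 25.8 CPM in CD45+ libraries (-7.85 ± 0.73 for brush against CD45+ cells). It is given with no test because Cmah passed the filter through CD45+ libraries alone. Gbgt1 had no count in any brush library, so that CD45+ cells stood at least 61.7-fold higher.

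Of 4 tested carbohydrate sulfotransferases, 1 was higher and 1 lower in each brush comparison. Chst2, which sulfates GlcNAc, was higher than in EpCAM+ cells by 4.49 ± 0.85, at 4.94 ± 2.75 CPM in brush libraries and 0.171 ± 0.292 CPM in EpCAM+ libraries. It is given with no test because it passed the filter mainly through brush libraries. Gal3st4 was lower than in EpCAM+ cells at a log2 fold change of -3.14 ± 0.59. Against CD45+ cells Gal3st1, the sulfatide synthase, was higher by 4.81 ± 0.80 and Chst7 lower at a log2 fold change of -2.95 ± 0.67. Of 9 tested glycosidases, 5 were higher and 1 lower than in EpCAM+ cells (median 0.82), and 1 higher and 3 lower than in CD45+ cells (median -0.02). Neu1, the lysosomal sialidase, averaged 92.8 ± 22.0 CPM in brush libraries and 19.8 ± 7.48 CPM in EpCAM+ libraries (2.23 ± 0.36, adjusted p = 2.7e-05, edgeR). Neu3, the sialidase of gangliosides, was lower at a log2 fold change of -1.98 ± 0.62. Neu2 had no count in CD45+ cells, which made brush cells at least 12.8-fold higher.

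Of the 16 mucin-type acceptor genes, 7 were tested, and 1 was higher and 4 lower in brush cells than in EpCAM+ cells (median -3.60). Muc4, a membrane mucin, averaged 1.22 ± 1.08 CPM in brush libraries and 82.1 ± 41.3 CPM in EpCAM+ libraries (-6.40 ± 0.65), and Muc16, another, 0.216 ± 0.275 CPM in brush libraries and 19.95 ± 8.92 CPM in EpCAM+ libraries (-5.97 ± 0.94). Both are given with no test because they passed the filter mainly through EpCAM+ libraries. Cd24a, a small heavily glycosylated surface protein, was the one that was higher, at 997.0 ± 201.8 CPM in brush libraries and 263.2 ± 84.2 CPM in EpCAM+ libraries (1.92 ± 0.34, adjusted p = 6.54e-05, edgeR). Against CD45+ cells 3 were higher and none lower (median 1.03), Cd24a (2.33 ± 0.43) among them, and Muc20, with 1 count in CD45+ cells, stood at a ratio of 49.5 (95% exact interval 8.64 to 1976, counting error only).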

How the data were processed

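Sorted mouse tracheal cells were profiled by RNA sequencing in 18 libraries. The authors deposited a table of whole-number counts per gene, per the file headers, and for each library RSEM expected counts and TPM values. Per the submitters' processing notes they used STAR 2.4.2a, Picard, RSEM 1.2.21 and featureCounts with the mm10 build; the sources used here give neither the strand setting nor the annotation of the counting. Here the deposited counts were tested with the edgeR 4.0.16 quasi-likelihood test in R 4.3.3, with TMM scaling, the filterByExpr low-count filter by group (13418 of 26327 symbols kept), all 18 libraries in one fit and group as the only term. P-values were adjusted by Benjamini-Hochberg over all genes tested. Standard errors were taken as the size of the log2 fold change over the root of its F value. The test was checked on simulated counts. Levels between genes used the authors' deposited TPM. A count of 0 was given a floor of 3 counts over the group; intervals (95%) cover counting error only. RSEM expected counts were rounded for one alternative. DESeq2 1.42.0, limma 3.58.1 (voom), other scalings, filters and each library left out were the alternatives. Positions of genes come from GENCODE vM21 (GRCm38). Members given library by library were, in each class, up to 4 with the largest change among those called against EpCAM+ cells with a mean of at least 10 CPM and no overlap, plus those with the highest median TPM in brush and in EpCAM+ cells, plus A3galt2; other members outside this rule were named after their values were seen. Named list genes are the 2 largest calls per list and those against its majority; some of these are not reported here. Members and lists were chosen with earlier results of these data known. The authors' normalized table was not used.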

Additional observations from a re-analysis of the deposited data

Results flagged for a closer look

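Among 70 groups of libraries of the 24 named members, 4 held a single library far from the rest. The threshold was Dixon's 95% critical value. Its nominal rate of about 1 group in 20 holds for independent groups, and these groups share libraries. How many of the 4 arose by chance was not tested. B4galt1 stood at 252.4 CPM in EpCAM+ replicate 5, with the next highest EpCAM+ library at 83.4 CPM. Galnt18 stood at 46.9 CPM in the same library, below the next lowest at 149.8 CPM. St3gal4 stood at 11.3 CPM in brush replicate 4, with the next lowest brush library at 30.5 CPM. Fut2 stood at 0.997 CPM in CD45+ replicate 2, where the other 3 CD45+ libraries had no count. EpCAM+ replicate 5 also had the highest club and goblet marker sum of its group (166900 CPM), and brush replicate 4 the fewest counts of the brush libraries (838328); the part of either in these values was not tested.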

How the results depend on the processing

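Of 348 alternatives for the counts, 345 stayed within 1.5 times the reported count. The exceptions were these: with no low-count filter 19 members were lower in brush than in CD45+ cells, against 12, as 71 members were then tested. Leaving out one library at a time gave 17 to 21 members higher and 9 to 13 lower in brush than in EpCAM+ cells, 11 to 15 and 11 to 16 against CD45+ cells, and 10 to 13 and 13 to 18 for EpCAM+ over CD45+ cells. For the donor and acceptor lists, 9 genes were lower in brush than in CD45+ cells without CD45+ replicate 4, against 15 (range 9 to 17). Libraries with the same replicate number did not deviate together (correlations of -0.07 to 0.24 for brush with EpCAM+ pairs, and 2 of 7 brush libraries closest to their own number), so the number was not taken as a pairing. With it as a replicate block, 18 members were higher and 9 lower than in EpCAM+ cells, 11 and 11 against CD45+ cells, and 10 and 14 for EpCAM+ over CD45+ cells, with 9 list genes lower in brush than in CD45+ cells. Of 1386 alternatives for single named members, 1350 kept direction and call, 27 lost and 6 gained the call, and 3 changed sign, none of them called: Galnt2 in brush against CD45+ cells was 0.06 without CD45+ replicate 4 (range over left-out libraries -0.49 to 0.06) and 1.77 with RSEM expected counts, and Galnt6 was 0.18 without CD45+ replicate 3 (range -0.58 to 0.18). The cause was not tested. Upper-quartile scaling shifted the median of all genes by 0.11 (brush against CD45+) and 0.12 (EpCAM+ against CD45+) on the log2 scale. Depth limits the members with few counts, and CD45+ replicate 1, the shallowest library, listed several at 0.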
